A study of Mus musculus with 5 samples.

Results

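The genes of the circadian clock were followed in olfactory sensory neurons (OSNs) that transcribe the odorant receptor gene *Olfr151*, after 5 h of exposure to acetophenone, a ligand of this receptor. The 10 genes are *Per1*, *Per2*, *Per3*, *Cry1*, *Cry2*, *Arntl*, *Clock*, *Nr1d1*, *Dbp* and *Tef*, found by matching the Ensembl identifier of each row to its symbol among 55411 genes, and 8 of the 10 had enough counts to be tested. *Per1* and *Cry2* were higher in the exposed neurons, 4.95-fold and 2.38-fold, and none of the other 6 tested genes passed the test in either direction. The remaining pair, *Per3* and *Dbp*, were near the lower limit of detection in most libraries.

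All mice carried the same homozygous knock-in, Olfr151(tm26Mom/tm26Mom), in which GFP is made together with the receptor, so control and exposed neurons share the modified allele. Males of 7 weeks, kept under 12 h of light and 12 h of dark, were isolated and given a swab with DMSO (control) or with 5% acetophenone in DMSO (exposed), and every exposure began at 8 in the morning. GFP-positive cells of 4 mice were combined in each pool, 200 cells per pool by the sample characteristics although another field of the labels gives a larger number, and polyadenylated RNA was amplified and sequenced. The analysis used 3 control libraries (pools 1 to 3) and 2 exposed libraries (pools 1 and 3), and exposed pool 2 was not analysed here.

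The libraries held between 42780403 and 49527380 counts, with 0.249% to 0.631% of them on the added ERCC RNAs. Mature OSN markers passed the detection threshold in full (9 of 9, among them *Omp*). Their summed level was 59336, 63272 and 59894 CPM (counts scaled to a common library total) in controls 1, 2 and 3, against 51084 and 51848 CPM in exposed pools 1 and 3. Of the 9, 3 were called lower after exposure, beside 1.85% of all features tested, and 0 with scaling by the ERCC counts, beside 0.487%. Among the markers of other cells, *Cdh5* (endothelium) had no count in any library. *Pecam1*, also of endothelium, had 309, 145 and 332 counts in controls 1, 2 and 3 and 230 and 228 in exposed pools 1 and 3. In bulk RNA of sorted cells, fewer cells of a type and less RNA per cell cannot be told apart. The labels place the work on 3 consecutive days with 4 mice of each condition per day, without saying which pool belongs to which day, and neither the hour of lights-on nor the hour at which each pool was sorted is given in the sources used here. There was no series of time points, so no rhythm was measured.

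The mammalian clock is a feedback loop of transcription. CLOCK and ARNTL (BMAL1) bind E-box elements and switch on the *Per* and *Cry* genes, whose proteins return to the nucleus and hold back CLOCK and ARNTL, while a second loop through NR1D1 (REV-ERB alpha) and the ROR receptors sets the rhythm of *Arntl*. The PAR bZIP factors DBP and TEF carry the rhythm to further genes through D-box elements. *Per1* and *Per2* are also acute genes, switched on in many cells through CRE elements by cAMP and calcium signals and by glucocorticoids, and the olfactory epithelium and bulb are known to hold clocks of their own.

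The sequences just before the start sites are shown because the known regulation of these genes runs through short elements there. RefSeq promoter windows of GRCm38.p6, cut to the 250 bases before each start, were available for 9 of the 10 genes in 14 windows, and *Per2* had none. For 11 of the 14 windows, the 50 bases that follow were found in an annotated transcript of the gene. They were not for the windows of *Cry2* and *Nr1d1* and the second window of *Per1*. The E-box CACGTG, the CRE TGACGTCA, the D-box TTATGTAA and the ROR or REV-ERB core AGGTCA were searched on both strands, and matches are in capitals. Of 32851 promoter windows of this length, 6.02% held the E-box, 1.55% the CRE, 0.819% the D-box and 14.0% the AGGTCA core. The window of *Per1* at chr11:69098699-69098948, plus strand, held an E-box that begins at position -166 from the start and the AGGTCA core on the opposite strand at -137. That of *Cry1* at chr10:85185055-85185304, minus strand, held an E-box at -60, and that of *Tef* at chr15:81802423-81802672, plus strand, held one at -127. A second *Tef* window held an E-box at -138, and the third of the *Clock* windows held the AGGTCA core on the opposite strand at -119. The window of *Per3* at chr4:151044666-151044915, minus strand, held D-boxes at -205 and -158, and that of *Cry2* at chr2:92434070-92434319, minus strand, held none of the 4 motifs.
Per1: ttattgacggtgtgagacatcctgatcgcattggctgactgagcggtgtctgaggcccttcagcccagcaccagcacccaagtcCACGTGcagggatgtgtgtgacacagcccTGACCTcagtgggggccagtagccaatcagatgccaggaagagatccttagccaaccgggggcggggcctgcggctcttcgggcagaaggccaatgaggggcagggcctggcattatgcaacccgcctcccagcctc
Cry1: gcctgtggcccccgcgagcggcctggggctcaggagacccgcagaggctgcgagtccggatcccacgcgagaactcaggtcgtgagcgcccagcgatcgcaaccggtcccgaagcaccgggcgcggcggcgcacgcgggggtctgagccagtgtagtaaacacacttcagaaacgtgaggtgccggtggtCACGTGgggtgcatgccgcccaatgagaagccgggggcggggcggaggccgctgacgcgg
Tef: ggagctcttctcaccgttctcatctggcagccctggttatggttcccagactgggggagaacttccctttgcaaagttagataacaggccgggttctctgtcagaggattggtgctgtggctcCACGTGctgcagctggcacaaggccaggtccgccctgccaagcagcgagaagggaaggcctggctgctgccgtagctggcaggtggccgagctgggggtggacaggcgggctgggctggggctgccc
Per3: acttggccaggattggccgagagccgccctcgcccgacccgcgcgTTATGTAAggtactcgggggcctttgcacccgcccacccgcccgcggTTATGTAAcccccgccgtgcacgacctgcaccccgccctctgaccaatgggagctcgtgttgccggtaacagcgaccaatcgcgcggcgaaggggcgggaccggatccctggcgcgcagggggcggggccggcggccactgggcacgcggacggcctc
Cry2: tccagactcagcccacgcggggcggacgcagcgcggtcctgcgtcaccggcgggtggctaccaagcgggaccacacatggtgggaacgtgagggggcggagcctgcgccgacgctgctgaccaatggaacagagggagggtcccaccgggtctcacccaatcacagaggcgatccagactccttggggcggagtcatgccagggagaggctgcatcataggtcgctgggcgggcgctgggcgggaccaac
The full CRE was in none of the 14 windows, and 5 of the 9 genes had a match of any kind. A match describes the letters of this window and is not a measured binding site, and a window without one says nothing of elements elsewhere in the gene.

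The first question was whether the odorant moved the *Per* genes, whose proteins, with those of the *Cry* genes, close the negative limb of the loop. *Per1* (ENSMUSG00000020893, GRCm38 chr11:69095217-69109960, plus strand) had 413, 390 and 577 counts in controls 1, 2 and 3, against 2372 and 1806 in exposed pools 1 and 3. The groups were far apart, and even the lower exposed pool stood well above the highest control pool. In CPM after TMM scaling, which sets the libraries to a common scale, *Per1* rose from 9.96 ± 2.33 (SD, n = 3) to 49.2 ± 8.55 (SD, n = 2). The log2 fold change was 2.31 (SE 0.32) and the adjusted p-value was 0.0168 in the quasi-likelihood test of edgeR, adjusted by the Benjamini-Hochberg method over all genes tested. In this test, 3.42% of the 10055 features tested were called higher and 1.85% lower, at an adjusted p-value under 0.1 and a log2 fold change beyond 0.5, so 2 of 8 clock genes called higher stand beside 3.42% in the background. *Per1* had the 113th smallest p-value, and 1.46% of the features tested had a larger log2 fold change. The call was lost without exposed pool 1, where the log2 fold change was 2.11 and the adjusted p-value 0.173, and with scaling by the ERCC counts, where they were 2.07 and 0.279.

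*Per2* (ENSMUSG00000055866, chr1:91415982-91459324, minus strand), the paralog that forms complexes with CRY proteins, had 2111, 3291 and 2241 counts in the control pools, and 4650 and 3194 in the exposed ones. On the CPM scale, exposed pool 3 (76.4) lay just above control pool 2 (66.6), so the groups did not overlap, but by a narrow margin. Levels were 54.5 ± 10.5 CPM (SD, n = 3) in controls and 92.4 ± 22.6 CPM (SD, n = 2) in exposed pools, a log2 fold change of 0.76 (SE 0.26), with an unadjusted p-value of 0.0212 and an adjusted p-value of 0.181 by edgeR's quasi-likelihood test. DESeq2, used as an alternative, called it higher, with an adjusted p-value of 0.0603. *Per3* (ENSMUSG00000028957, chr4:151003652-151044665, minus strand), which is not required for the core loop, had 15, 255 and 43 counts in controls and 16 and 17 after exposure. Most of its control counts came from pool 2, the groups overlapped, and the gene missed the detection threshold, which asked for 140 counts in each library of one condition or the other. With edgeR's own filter in place of that threshold its adjusted p-value was 0.560.

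The *Cry* genes encode the strongest repressors of CLOCK and ARNTL. *Cry2* (ENSMUSG00000068742, chr2:92403646-92434043, minus strand) was the most abundant of the 10 per length of transcript, with 7477, 14110 and 11701 counts in controls 1, 2 and 3, against 23477 and 24165 in exposed pools 1 and 3. The exposed pools lay close together and above every control pool, among which pool 1 was the lowest. Levels rose from 237 ± 58.5 CPM (SD, n = 3) to 563 ± 21.7 CPM (SD, n = 2), a log2 fold change of 1.25 (SE 0.22) with an adjusted p-value of 0.0357 by edgeR's quasi-likelihood test. It had the 206th smallest p-value, and 4.54% of the features tested had a larger log2 fold change. Of its exon bases, 295 (4.67%) are shared with *D930015M05Rik* on the other strand. Because strand was not used in counting, reads there were ambiguous and not counted. The *Cry2* call was lost without exposed pool 1 (adjusted p = 0.220), without exposed pool 3 (adjusted p = 0.164), with edgeR's own filter (adjusted p = 0.112) and with ERCC scaling, where the log2 fold change was 0.95.

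*Cry1* (ENSMUSG00000020038, chr10:85131700-85185064, minus strand) differed from its paralog in how the exposed pools behaved, with 3667, 4239 and 3358 counts in controls and 3794 and 7465 in the exposed pools. Exposed pool 1 was barely above the controls (88.4 against at most 85.8 CPM) and exposed pool 3 was 2.02 times exposed pool 1. The log2 fold change was 0.72 (SE 0.30) with an unadjusted p-value of 0.0467 and an adjusted p-value of 0.254 by edgeR's quasi-likelihood test, and it fell to 0.10 without exposed pool 3. The ratio of *Cry2* to *Cry1* reads per kilobase, on the log2 scale, was 0.11, 0.82 and 0.88 in controls 1, 2 and 3, against 1.71 and 0.78 in exposed pools 1 and 3, so it overlapped between the groups. The exposed pools were thus alike for *Cry2* and unlike for *Cry1*.

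**Figure D1:**
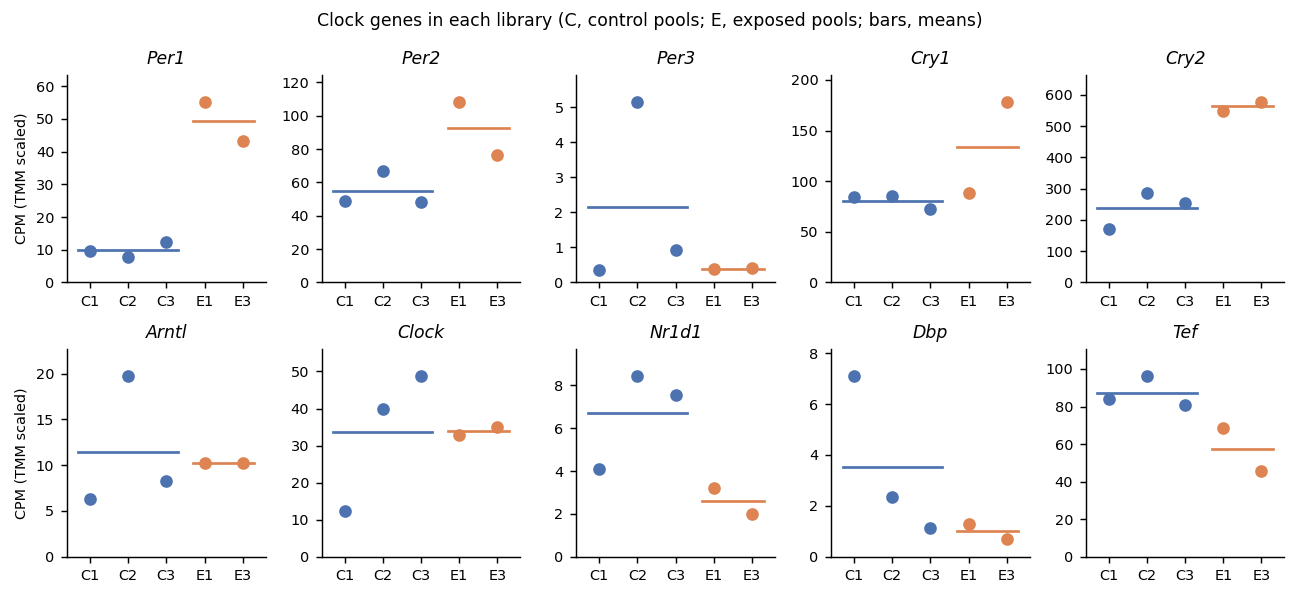
CPM after TMM scaling for the 10 clock genes, each in its own panel with a linear axis, with 1 point per library for each of the 3 control and 2 exposed pools. The exposed points of *Per1* (43.2 and 55.3) and *Cry2* (547 and 578) lie above all control points, while those of *Arntl* and *Clock* lie within the control range.

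The positive limb showed another picture. *Arntl* (ENSMUSG00000055116, chr7:113207465-113314126, plus strand), the indispensable partner in the activating complex, had 275, 975 and 384 counts in controls, against 441 and 427 after exposure. Both exposed values lay inside the control range, whose upper end was set by pool 2 alone. The log2 fold change was -0.16 (SE 0.56), with an adjusted p-value of 0.913 by edgeR's quasi-likelihood test, and it became 0.49 when control pool 2 was left out. *Clock* (ENSMUSG00000029238, chr5:76209868-76304792, minus strand), which encodes the other partner, had 532, 1973 and 2256 counts in controls and 1408 and 1460 in exposed pools. Here control pool 1 was the low one, and the exposed pools again lay inside the control range. Its log2 fold change was 0.0092 (SE 0.55), with an adjusted p-value of 0.995, and its sign turned with ERCC scaling (-0.37), without control pool 1 (-0.38) and without exposed pool 3 (-0.062). The standard errors of both genes were larger than that of *Cry2* (0.22), and p-values this high do not show that the levels were equal.

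*Nr1d1* (ENSMUSG00000020889, chr11:98767932-98775333, minus strand), the repressor of *Arntl* transcription in the second loop, had 178, 417 and 350 counts in controls, against 138 and 83 after exposure. Every exposed pool was below every control pool, with control pool 1 the nearest. Levels were 6.70 ± 2.30 CPM (SD, n = 3) and 2.60 ± 0.871 CPM (SD, n = 2), a log2 fold change of -1.36 (SE 0.60) with an unadjusted p-value of 0.056 and an adjusted p-value of 0.276 by edgeR's quasi-likelihood test. The gene shares 263 of its exon bases (8.55%) with *Thra* on the opposite strand.

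The output factors came last in the loop. *Tef* (ENSMUSG00000022389, chr15:81802421-81826863, plus strand) was among the most evenly measured genes, with 3651, 4756 and 3728 counts in controls and 2942 and 1915 in exposed pools. Both exposed pools were under the control pools, pool 3 further than pool 1. Levels were 86.9 ± 8.24 CPM (SD, n = 3) and 57.2 ± 16.1 CPM (SD, n = 2), and the log2 fold change of -0.60 (SE 0.24) had an unadjusted p-value of 0.043 and an adjusted p-value of 0.246 by edgeR's quasi-likelihood test. *Dbp* (ENSMUSG00000059824, chr7:45705088-45710203, plus strand), an E-box target that cycles strongly in most tissues, had 309, 116 and 52 counts in controls and 56 and 30 in exposed pools, below the detection threshold. Control pool 1 stood alone at the top and the groups overlapped. Of the exon bases of *Dbp*, 18.0% are shared with *Sphk2* on the other strand, and reads there were ambiguous and not counted. With edgeR's own filter its adjusted p-value was 0.553.

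Over the 8 tested genes, 5 log2 fold changes were positive and 3 negative, with a median of 0.37 beside -0.026 over all features tested. In *Per1*, *Per2*, *Cry1* and *Cry2* all exposed pools lay above all control pools, and in *Nr1d1* and *Tef* all lay below, against 20.3% and 19.6% of all features tested. At an unadjusted p-value under 0.05 and the same fold rule, 4 of the 8 were higher and 1, *Tef*, was lower, beside 8.37% and 9.37% of all features tested. DESeq2 called 3 higher and 0 lower, beside 7.21% and 7.65%. *Nr1d1* reached the count threshold through the control pools alone, where it was higher, and the other 7 reached it in both conditions. With scaling by ERCC counts in place of TMM, the median over all features tested moved from -0.026 to -0.23, and of the 8 genes *Clock* alone changed sign.

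**Figure D2:**
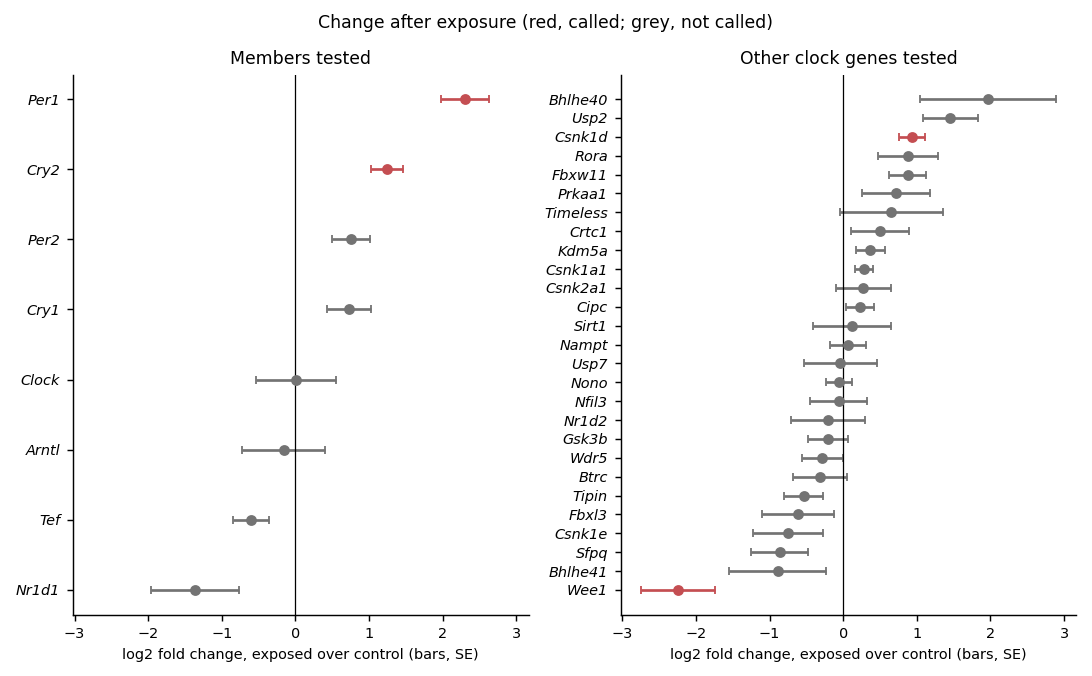
Log2 fold change of exposed over control pools for the 8 tested clock genes (left) and for the 27 tested genes of the list of other clock genes (right). Bars are 1 standard error, from edgeR's quasi-likelihood fit. On the left *Per1* (2.31) and *Cry2* (1.25) are the called genes, and the bars of *Arntl* and *Clock* span 0. On the right *Csnk1d* (0.93) and *Wee1* (-2.25) are the called genes.

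Per length of transcript, *Cry2* and *Cry1* had the highest levels. In CPM per kilobase of exon, control pools had *Cry2* at 37.5 ± 9.26, *Cry1* at 24.2 ± 2.16, *Tef* at 11.1 ± 1.05 and *Per2* at 9.31 ± 1.79 (SD, n = 3). A lower tier followed, with *Clock* at 2.45, *Nr1d1* at 2.18, *Per1* at 1.77, *Arntl* at 1.52, *Dbp* at 1.18 and *Per3* at 0.223 in the mean of the same 3 pools. Neighbours in this order were apart, with no overlap of their pools, for *Cry2* and *Cry1*, for *Cry1* and *Tef* and for *Per2* and *Clock*, and all others overlapped. In exposed pools the order was *Cry2* (89.0), *Cry1* (40.0), *Per2* (15.8), *Per1* (8.75), *Tef* (7.27), *Clock* (2.47), *Arntl* (1.36), *Nr1d1* (0.845), *Dbp* (0.338) and *Per3* (0.0406), in the same unit. *Per1* thus went from the seventh to the fourth place, where its range overlapped that of *Tef*.

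A ratio of genes within a library does not depend on the scaling between libraries, and was therefore computed against *Arntl*, which in most tissues peaks opposite to the E-box genes. On the log2 scale of reads per kilobase, *Per1* over *Arntl* was 1.00, -0.90 and 1.01 in controls 1, 2 and 3, against 2.85 and 2.50 in exposed pools 1 and 3. *Cry2* over *Arntl* was 5.02, 4.11 and 5.18 in controls and 5.99 and 6.07 in exposed pools. Both ratios were higher in every exposed pool than in any control pool, as were those of 8.78% of all features tested. *Nr1d1* over *Arntl* went the other way, with 0.66, 0.064 and 1.16 in controls and -0.39 and -1.07 in exposed pools, where 5.81% of all features tested did the same. The untested *Per3* also had ratios below all controls, on 16 and 17 counts. For *Per2*, *Cry1*, *Tef*, *Dbp* and *Clock* the ratios overlapped. Between the paralogs, *Per1* over *Per2* was -2.30, -3.02 and -1.90 in controls and -0.92 and -0.77 in exposed pools. These did not overlap, but the share of all features tested whose ratio to *Per2* did the same was not computed.

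**Figure D3:**
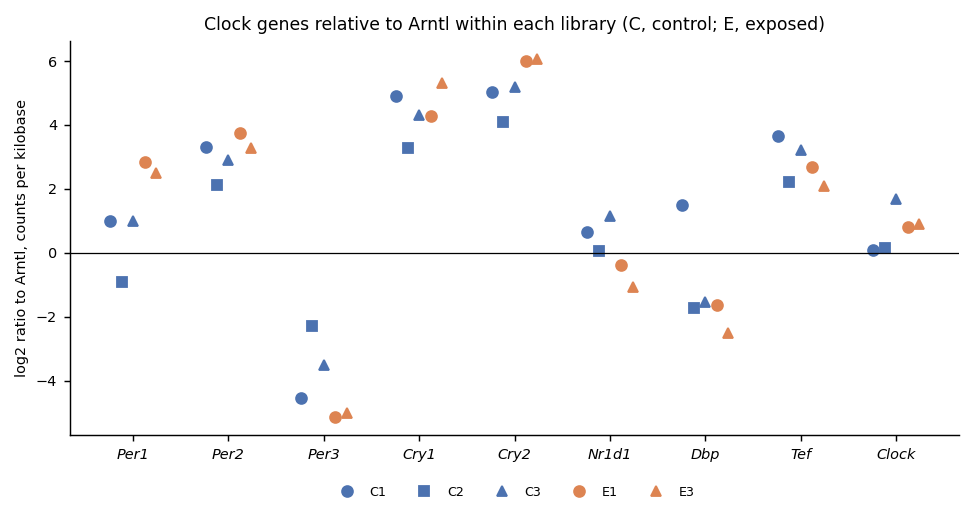
Log2 ratio of reads per kilobase of each clock gene to *Arntl* in the same library, with 1 point for each of the 3 control and 2 exposed pools. The exposed ratios of *Per1* and *Cry2* are above those of all controls and those of *Nr1d1* below, and control pool 2, which had the most *Arntl*, has the lowest *Per1* and *Cry2* ratios.

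Differences between pools of the same condition were examined next, since pools may differ in the time at which their cells were collected. Over the 3 control pools the SD of the log2 level was 0.131 for *Cry1* and 0.133 for *Tef*, at percentiles 15.5 and 15.8 of all features tested, whose median SD was 0.313. *Per2* (0.262), *Per1* (0.316) and *Cry2* (0.382) lay near that median. *Nr1d1* (0.517), *Arntl* (0.820) and *Clock* (1.05) lay above it, the last at percentile 93.7. The low genes *Dbp* (1.13) and *Per3* (1.42) had the widest spread. These places depended on the scaling. With ERCC scaling the SDs lay between 0.679 and 1.83 with a median of 0.750 over all features tested. There *Cry1*, *Tef* and *Dbp* were at percentiles 40.1, 52.6 and 49.9, and *Per1*, *Per2*, *Cry2* and *Nr1d1* at 39.8, 68.3, 82.7 and 86.3. *Clock*, *Arntl* and *Per3* were at 94.6 or above.

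Each control pool was left out in turn to see which lay furthest from the others. With 3 pools, leaving out that pool lowers the SD of any gene, so a lower SD alone is no result. Leaving out control pool 2 gave an SD of 0.0016 for *Per2* and 0.041 for *Tef*. Leaving out control pool 3 gave 0.018 for *Cry1* and 0.178 for *Per1*, and leaving out control pool 1 gave 0.123 for *Cry2*. Leaving out a different pool gave up to 0.322 for *Per2*, 0.180 for *Tef*, 0.169 for *Cry1*, 0.445 for *Per1* and 0.517 for *Cry2*. Among the genes with wider spreads, control pool 1 or control pool 2 lay furthest from the others. *Arntl* and *Per3* were highest in control pool 2, at 3.12 and 15.0 times the lowest control pool, and without pool 2 their SDs were 0.260 and 0.537. *Dbp* was highest and *Clock* lowest in control pool 1, with 6.32 and 3.99 times between the extremes, and without pool 1 their SDs were 0.573 and 0.202. *Nr1d1* was also lowest in control pool 1, and its SD was 0.105 without that pool. Control pool 1 also had the highest share of ERCC counts (0.631%) and the highest red blood cell markers of any library, a sum of 316 CPM beside 6.24 to 103 CPM in the others, and the part of either in these spreads was not tested.

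**Figure D4:**
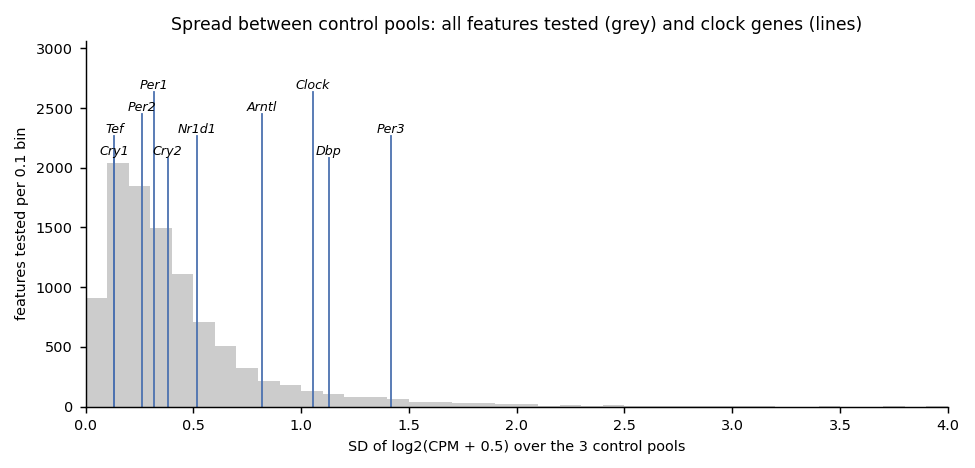
Number of features tested by the SD of their log2 level over the 3 control pools, with the SDs of the clock genes marked. *Cry1* (0.131) and *Tef* (0.133) are on the narrow side of this TMM-scaled distribution and *Clock* (1.05) and *Per3* (1.42) on the wide side.

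The difference of pool 3 minus pool 1 could be taken in each condition without sharing a library, although the numbers are labels only and same-numbered pools came from different mice. It had the same sign in controls and exposed pools for 4 of the 8 tested genes, a share close to the 53.6% of all features tested. In controls *Clock* differed by 1.95 and *Dbp* by -2.23 on the log2 scale, and in exposed pools by 0.088 and -0.57. *Cry1* differed by -0.21 in controls and 1.01 in exposed pools, and *Nr1d1* by 0.81 and -0.58. Differences in collection time between pools and all other differences between pools cannot be told apart.

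The rest of the clock machinery was followed through a list of 34 other genes, of which 27 were tested. In this list 1 gene was called higher and 1 lower, shares close to the 3.42% and 1.85% of all features tested. In it 14 log2 fold changes were positive and 13 negative, and the median was 0.068 beside -0.026 over all features tested. All exposed pools lay above all controls for 9 genes and below for 2, against 20.3% and 19.6% of all features tested.

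Among the enzymes that modify clock proteins or set their turnover, 11 of 12 were tested and 1 was called. This was *Csnk1d*, casein kinase 1 delta, which phosphorylates PER proteins, with 7176, 8991 and 6148 counts in controls, against 13533 and 12369 after exposure. The exposed pools were close to each other and above all controls. *Csnk1d* rose 1.91-fold, with a log2 fold change of 0.93 (SE 0.17) and an adjusted p-value of 0.044 by edgeR's quasi-likelihood test, a call that held in 8 of 13 alternatives. It was lost with ERCC scaling (log2 fold change 0.70, adjusted p = 0.9996), with edgeR's own filter (adjusted p = 0.102) and with the pool number as a block (adjusted p = 0.165). The call was also lost without exposed pool 1 (log2 fold change 0.88) and without exposed pool 3 (0.95). *Usp2*, a deubiquitinase whose transcript is rhythmic in many tissues, had 268, 341 and 294 counts in controls and 662 and 840 in exposed pools. Its groups were well apart, with a log2 fold change of 1.46 (SE 0.37) and an adjusted p-value of 0.105 in edgeR, while DESeq2 called it higher (adjusted p = 0.00468). *Csnk1e*, the paralog of *Csnk1d* named here after its values were seen, had 1261, 1203 and 581 counts in controls and 403 and 696 in exposed pools, with overlapping groups, a log2 fold change of -0.76 (SE 0.48) and an adjusted p-value of 0.440.

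Of the 12 further transcription factors of the clock, 6 were tested and none was called by edgeR or by DESeq2, nor had any an unadjusted p-value under 0.05. *Bhlhe40* (DEC1), which competes at E-boxes and answers to many stimuli, had 1157, 143 and 263 counts in controls and 2692 and 1197 in exposed pools. Control pool 1 was nearly as high as exposed pool 3, and the log2 fold change of 1.96 (SE 0.92) had an adjusted p-value of 0.316 by edgeR's quasi-likelihood test, but without control pool 1 they were 3.42 and 0.0478. Its paralog *Bhlhe41* (DEC2) had 160, 537 and 755 counts in controls and 220 and 249 in exposed pools, which overlapped, with a log2 fold change of -0.89 (SE 0.66) and an adjusted p-value of 0.513. *Nr1d2*, the paralog of *Nr1d1* and also named after its values were seen, had 728, 1350 and 882 counts in controls and 1163 and 395 in exposed pools, of which the first lay within the control range and the second below it, with an adjusted p-value of 0.863.

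Of the 10 complex partners and outputs, all were tested and 1 was called lower. *Wee1*, a cell cycle kinase known as an E-box target of the clock in liver, had 795, 1218 and 635 counts in controls and 118 and 218 in exposed pools. The highest exposed pool was well under the lowest control pool, and the gene reached the count threshold through the controls alone. *Wee1* fell by 2.25 on the log2 scale (SE 0.50), with an adjusted p-value of 0.073 by edgeR's quasi-likelihood test, a call that held in 5 of 13 alternatives. It was lost without control pool 1 (adjusted p = 0.109), control pool 2 (0.204), exposed pool 1 (0.360) or exposed pool 3 (0.139).

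Since *Per1* also answers to signals from outside the loop, lists of genes for such signals were counted. Of 15 immediate early and CREB target genes 11 were tested, 6 were called higher and none lower by edgeR, beside 3.42% and 1.85% of all features tested. Of the 11, 6 reached the count threshold in both conditions, with 3 called (*Nr4a1*, *Junb* and *Egr1*), and 5 reached it through the exposed pools alone, where they were high, with 3 called (*Fosl2*, *Pcsk1* and *Sik1*). The 4 untested genes overlapped between the groups. By edgeR 1 was called without exposed pool 1 (0.891% of all features), 3 without exposed pool 3 (1.03%) and 2 without control pool 2 (1.57%), and DESeq2 called 8 higher (7.21%). The called genes were *Nr4a1* (4.37), *Pcsk1* (3.80), *Sik1* (3.56), *Fosl2* (2.98), *Junb* (1.65) and *Egr1* (1.49), each with its log2 fold change. *Nr4a1*, an orphan nuclear receptor of the immediate early class, had 3040, 3025 and 4296 counts in controls and 76181 and 54703 in exposed pools. *Sik1*, a kinase that restrains the coactivators of CREB and thereby limits the resetting of the clock by light, had an adjusted p-value of 0.0267 by the same edgeR test.

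Of 13 genes known to answer to glucocorticoids 11 were tested, 2 were called higher and none lower by edgeR, beside 3.42% and 1.85% of all features tested, and DESeq2 called 2 higher and 1, *Tsc22d3*, lower, beside 7.21% and 7.65%. The log2 fold change was positive for 7 and negative for 4, with a median of 0.44. The called genes were *Cdkn1a*, a cell cycle inhibitor (5.72-fold, adjusted p = 0.0046), and *Nfkbia*, the inhibitor of NF-kappaB (3.25-fold, adjusted p = 0.00922), both by edgeR's quasi-likelihood test. Both are also induced by signals other than glucocorticoids.

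The genes whose levels over the 5 libraries were most like those of each called clock gene were found by the root mean square difference of centred log2 CPM. For *Per1* they were *Nppc*, the precursor of C-type natriuretic peptide (0.155), *S100a5*, a calcium-binding protein of OSNs (0.160), and *Mcrip2* (0.189), where the median over all features tested was 1.18. For *Cry2* they were *Tmem150c* (0.0788), *Atp9b* (0.0806) and *Inpp5f* (0.0910), with a median of 0.758. All of these genes had log2 fold changes in the same direction as the clock gene they resembled, which the measure itself favours.

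Markers of other cells were set beside the *Per1* and *Cry2* results. Summed immune markers were 91.6, 7.71 and 4.17 CPM in controls 1, 2 and 3, against 148 and 50.0 CPM in exposed pools 1 and 3, with 4 of 7 tested and none called by edgeR (1, *Ptprc*, by DESeq2), *Ptprc* at 0 in control pool 1 and *Csf1r* at 0 in control pools 2 and 3. Without control pool 1, edgeR called 2 of the 4 higher, beside 3.13% of all features. Among these markers *Ptprc* was at 0, 54 and 1 counts in controls and 542 and 517 after exposure. *Ctss* was at 1980, 167 and 8 counts in controls and 2589 and 301 after exposure, which overlapped. The other 3 of the 4 tested, *Ptprc*, *Cd52* and *Tyrobp*, were above all controls in both exposed pools, beside 20.3% of all features tested. All 4 log2 fold changes were positive, with a median of 2.03. These 4 reached the count threshold through the exposed pools alone. Red blood cell markers summed to 316, 103 and 11.5 CPM in controls and 13.8 and 6.24 CPM in exposed pools. Of these *Hbb-bs* was the only one tested, with a log2 fold change of -3.86 and an adjusted p-value of 0.206 in edgeR, and it was called lower by DESeq2 and with ERCC scaling. Without control pool 3, all 3 red blood cell markers were tested and called lower, beside 4.17% of all features. There *Hba-a1* (3032 and 1303 counts in controls 1 and 2) and *Hba-a2* (1043 and 403) reached the count threshold through the controls alone, where they were high. The part of immune and red blood cell RNA in the *Per1* and *Cry2* results was not tested. Summed sustentacular cell markers overlapped between the groups (99.4 to 259 CPM in controls, 133 and 341 CPM in exposed pools), with none of 4 tested called. The untested *Ermn* did not overlap, with 11, 39 and 61 counts in controls and 307 and 130 in exposed pools 1 and 3. Immature OSN markers summed to between 749 and 924 CPM in controls and to 1159 and 871 CPM in exposed pools. Of these 5, 1, *Gap43*, was called higher by edgeR, beside 3.42% of all features tested, and 0 with ERCC scaling, beside 0.935%. DESeq2 called 2 higher, beside 7.21%. Singly, 3 (*Gng8*, *Gap43* and *Dpysl3*) lay above all controls in both exposed pools and 1 (*Tubb3*) lay below, beside 20.3% and 19.6% of all features tested. The summed markers of horizontal basal cells were at most 2.44 CPM in any library, those of globose basal cells at most 2.52 CPM, those of glia at most 4.68 CPM and those of endothelium at most 7.18 CPM.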

How the data were processed

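The 5 libraries of FAC-sorted *Olfr151*-transcribing neurons were analysed, grouped as control or exposed and numbered by their labels. The authors mapped single reads to GRCm38 with STAR 2.7.0a and deposited raw gene counts from featureCounts 1.6.3, ignoring strand and leaving out multi-mapping reads. Each pool comes from separate mice, so p-values measure the spread between pools. The cDNA was amplified without molecular identifiers.

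The counts were analysed with edgeR 4.0.16 in R 4.3.3 (TMM, robust glmQLFit, glmQLFTest, condition only, 5 libraries), and the script was tested on simulated data. A feature was tested where all control or all exposed libraries had 140 counts or more. This is where the density of log2 counts has its minimum just below the mode of expressed genes. Of the genes in the tables, 55144 had a symbol. Calls needed an adjusted p-value (Benjamini-Hochberg) under 0.1 and a log2 fold change beyond 0.5 in size. Log2 levels used CPM + 0.5, and ratios used counts per kilobase. For edgeR, SE is the size of the log2 fold change divided by the square root of its quasi-likelihood F statistic.

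The clock genes and all lists were chosen with earlier results of these data known. Named genes were the 10 clock genes, every called gene of the clock, glucocorticoid and immediate early lists, the 2 most extreme tested log2 fold changes of the other clock genes in each direction, and the 3 genes most like each called clock gene. *Csnk1e*, *Nr1d2*, *Tsc22d3*, the named markers of other cells and the genes under Other observations were named after their values were seen. Alternatives were DESeq2 1.42.0, its size factors, ERCC scaling, other filters, no robust estimation, a stricter adjusted p-value, a block for pool number and each library left out. Python 3.11.15 with pandas 2.3.3 and numpy 2.4.6 made the summaries.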

Additional observations from a re-analysis of the deposited data

How the results depend on the processing

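Of 104 log2 fold changes of the 8 tested clock genes under 13 alternatives, 99 kept their sign. The exceptions were *Clock* with ERCC scaling (-0.37), without control pool 1 (-0.38) and without exposed pool 3 (-0.062), and *Arntl* with the block (0.50) and without control pool 2 (0.49). With a library left out, *Clock* ranged from -0.38 to 0.40 and *Arntl* from -0.44 to 0.49. *Per1* stayed between 2.07 and 2.53 and was called in 10 of 13 alternatives, and *Cry2* between 0.95 and 1.43 in 8 of 13. None of the 8 was called lower under any of 14 settings, the stricter adjusted p-value included. The number called higher, 2 as reported, was 0 with ERCC scaling, 1 with filterByExpr and 0 to 2 with a library left out. DESeq2 called 3. For the other clock genes, 1 called higher became 0 with ERCC scaling and filterByExpr, 3 with DESeq2 and 0 to 2 with a library left out, and 1 called lower became 0 with ERCC scaling, filterByExpr, no filter and an adjusted p-value under 0.05, and 0 to 1 with a library left out. The 6 immediate early genes called higher became 4 with ERCC scaling, 2 with filterByExpr and 1 to 7 with a library left out. Over all features, 344 higher and 186 lower became 94 and 49 with ERCC scaling, 162 and 74 with filterByExpr, 725 and 769 with DESeq2, 190 and 90 with an adjusted p-value under 0.05, and 93 to 348 and 19 to 429 with a library left out. The cause of these shifts was not tested. Leaving out an exposed pool leaves 1, which is assumed to vary like the controls. A lower count threshold of 58 was chosen after seeing the data and kept both calls.

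Pool numbers are shared by control and exposed pools 1 and 3, but the labels do not tie a number to a day. The deviations of same-numbered pools correlated at 0.047 and -0.080. With 2 exposed pools, the deviations of one mirror those of the other. The correlations are therefore not separate checks and cannot show whether the pools are paired. With the pool number as a block, 0 clock genes were called higher (*Per1* 2.17, adjusted p = 0.216, and *Cry2* 1.43, adjusted p = 0.155, in edgeR), 0 other clock genes were called in either direction, 0 immediate early genes were called, and all features gave 11 higher and 0 lower.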

Other observations

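Paralogs of the activating pair that were under the detection threshold appeared in some pools and not in others. *Npas2*, a paralog of *Clock*, had 35 counts in exposed pool 1 and none in the other libraries. *Arntl2*, a paralog of *Arntl*, had 171 counts in exposed pool 3, 25 in control pool 1 and at most 1 elsewhere. Neither gene was tested.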
